A study of Mus musculus with 6 samples.

Results

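The genes described here encode the podosome belt and actin ring of osteoclasts, 41 genes chosen by symbol from a list of kinases, adaptors, plaque proteins, myosins, Arp2/3 subunits and actin regulators. All 41 were found among the 57180 genes of the deposited expression table, and all 41 passed the filter on low values, as did 11753 genes in all. The study sequenced RNA from 6 libraries of wild-type mouse bone marrow-derived macrophages, primary cells that fuse into bone-resorbing osteoclasts under the right signals. In 3 libraries the cells had spent 5 days under osteoclast-inducing conditions with Visomitin, a mitochondria-targeted plastoquinone antioxidant also called SkQ1. In the other 3, the controls, they had spent the same 5 days under the same conditions without it. The dose, the inducing factors, and the strain, sex and age of the mice are not stated in the labels. Nor do they say whether each library had its own mouse or culture. The p-values therefore reflect library-to-library spread alone, and that spread may be technical.

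Podosomes are short-lived adhesions in which a core of branched actin is surrounded by a ring of integrin-linked plaque proteins. In osteoclasts they gather into a belt at the cell edge and, on bone, into the sealing zone that encloses the resorbed area. WASP and the Arp2/3 complex build the core, talin, vinculin and paxillin tie it to integrins, and Src kinase drives its turnover. Mice without Src form osteoclasts that cannot resorb bone and develop osteopetrosis.

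Of the 41 genes, 10 fell with Visomitin and 0 rose, while 31 did not pass the test (limma on log2(TPM + 1), Benjamini-Hochberg adjusted p under 0.05). Of all 11753 genes tested, 5.03% were called lower and 2.08% higher, 7.1% in all. That is 591 lower and 244 higher genes, a split that became 676 and 499 with median-ratio scaling and 914 and 919 once length and GC were corrected for. The genes that fell were Myo1d, Cttn, Src, Myo1e, Myo10, Vcl, Sh3pxd2a, Dock5, Pxn and Lcp1, in order of the size of their change. Myo1d and Cttn were the 2 that changed by more than 1 on the log2 scale. The 7 subunits of the Arp2/3 complex did not pass, and neither did the transcripts of WASP, talin, kindlin-3, cofilin, profilin, Rac1, Cdc42 and RhoA. In bulk RNA, fewer cells of a type and less RNA per cell cannot be told apart.

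The median log2 fold change was -0.15 over the 41 genes and -0.03 over all genes tested. A value below 0 was found for 33 of the 41, against 6550 of all 11753. The 3 Visomitin libraries lay below all 3 control libraries for 20 of the 41 genes, where 18.4% of all tested genes did so, and above them for 1 gene, Rhoa, where 11.9% did. An unadjusted p under 0.05 was reached by 15 of the 41 and by 2862 of all 11753 genes tested. Just inside the threshold stood Lcp1 (adjusted p = 0.034), and just outside it Actn1 (0.057) and Evl (0.077). For 23 of the 31 genes that did not pass, the 95% interval of the log2 fold change lay within 0.5 of 0. Without 1 library at a time, 4 to 11 of the 41 genes were called lower, the fewest (4) without control 1. The fits lacking control 2, control 3 and Visomitin 2 gave 5, 5 and 6. The share of all tested genes called lower was 2.08% without control 1. It was 2.81%, 2.46% and 2.59% without control 2, control 3 and Visomitin 2, and 4.77% and 4.76% without Visomitin 1 and Visomitin 3. The calls of Myo1d, Cttn, Src and Myo1e held in each of the 6 fits with 1 library left out.

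**Figure D1:**
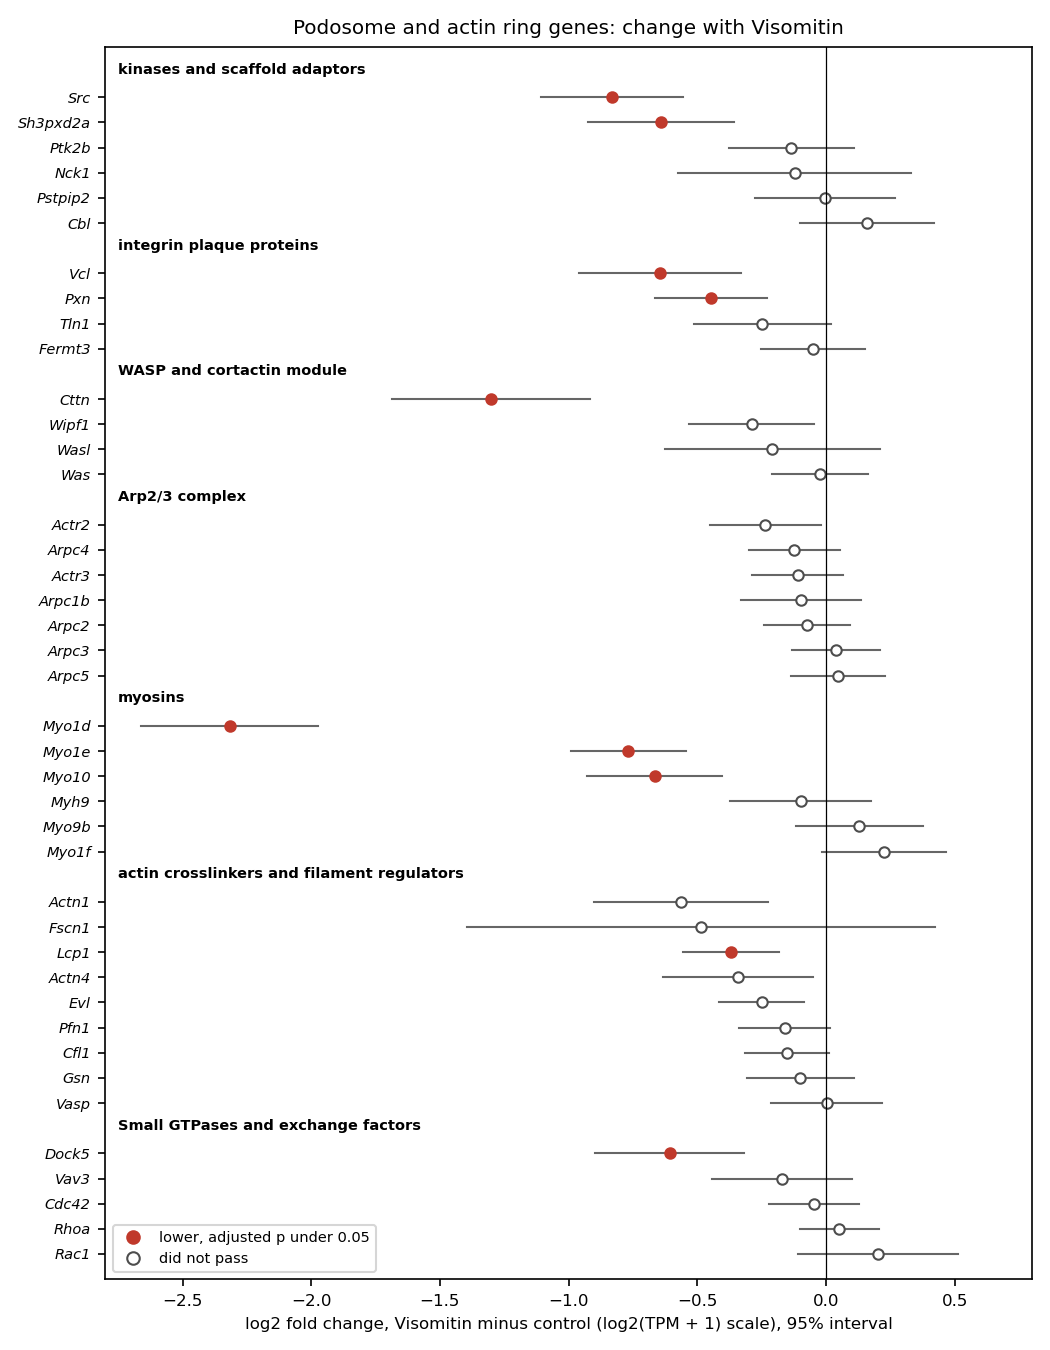
Each point is the log2 fold change of 1 gene, Visomitin minus control on the log2(TPM + 1) scale, with its 95% interval from limma, grouped by role on the vertical axis. Filled points are the 10 genes with an adjusted p under 0.05, all to the left of 0. The Arp2/3 subunits sit between -0.24 and 0.05.

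The libraries themselves differed in ways that touch these results. Levels are in TPM (transcript abundances scaled to a fixed total), which hide how many reads lie behind a value, and the sequencing depth is therefore unknown. The 10 osteoclast markers examined, among them Ctsk, Acp5 and Dcstamp, were all expressed and all called lower, and their summed level was 2969 to 3575 TPM with Visomitin and 11212 to 12156 TPM in controls. Of 10 macrophage markers 3 rose (Mrc1, Mertk and Cx3cr1) and 0 fell, with sums of 42070 to 47211 TPM with Visomitin and 36457 to 40744 TPM in controls. Most of this sum was Lyz2, at 38065 to 42065 TPM with Visomitin and 32021 to 36284 TPM in controls. Lyz2 did not pass (limma adjusted p = 0.18). All Visomitin libraries were above all controls for 6 of the 10 markers and below them for 1, Cd68. Of all tested genes, 11.9% lay above in this way and 18.4% below. Stromal markers were present too. Their sum over 8 genes, led by Acta2, Col1a2, Sparc and Col1a1, was 222, 305 and 413 TPM in Visomitin 1, 2 and 3, and 500, 255 and 752 TPM in control 1, 2 and 3. None of the 7 stromal markers tested passed, and Lum was at or near 0 throughout. Erythroid markers were at 0 in all libraries, and the neutrophil, lymphocyte, megakaryocyte and dendritic cell lists summed to at most 19.5 TPM in any library. Visomitin 1 stood apart, with the lowest value of the 6 libraries in 30 of the 41 genes and in 42.2% of all tested genes. Its deviations across genes correlated with log transcript length at r = -0.22, while the other libraries lay between -0.05 and 0.14 (11554 genes, a description with no test).

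Among kinases and scaffold adaptors, Src and Sh3pxd2a fell and the other 4 genes did not pass. Src (ENSMUSG00000027646), the tyrosine kinase at the centre of osteoclast podosome signalling, had 45.5, 62.3 and 56.3 TPM in the Visomitin libraries, against 96.3, 102.8 and 92.9 TPM in the control libraries. The groups did not overlap, and Visomitin 1 was the lowest library. The mean was 54.7 ± 8.50 TPM with Visomitin and 97.3 ± 5.01 TPM in controls (SD, n = 3 each), a log2 fold change of -0.83 (SE 0.12, limma adjusted p = 0.0063). The related kinase genes Lyn and Fgr, chosen for display with Fyn after their values were seen, did not pass. Lyn averaged 62.3 TPM with Visomitin and 65.1 TPM in controls and Fgr 92.6 and 89.6 TPM. Fyn rose, to 27.0 ± 0.75 TPM with Visomitin, against 19.2 ± 0.54 TPM in controls (0.47, limma adjusted p = 0.020). The call of Fyn was lost without Visomitin 2, Visomitin 3 or any single control library (adjusted p up to 0.078), while its log2 fold change stayed at 0.45 to 0.49.

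Sh3pxd2a, which encodes the Src substrate and podosome scaffold TKS5, had 11.9, 15.7 and 15.4 TPM with Visomitin, against 22.3, 22.7 and 23.3 TPM in controls. All Visomitin libraries were below all controls, with a log2 fold change of -0.64 (SE 0.12, limma adjusted p = 0.020). Dropping any single control library ended this call (adjusted p 0.064 to 0.075), with the log2 fold change at -0.71 to -0.52 over all libraries left out in turn. Its relative Sh3pxd2b, encoding TKS4 and chosen after its values were seen, averaged 52.8 TPM with Visomitin and 55.4 TPM in controls and did not pass (limma adjusted p = 0.70). Ptk2b, encoding the focal adhesion kinase relative PYK2, had 92.1, 114.1 and 118.7 TPM with Visomitin, against 118.1, 116.1 and 120.5 TPM in controls. Only Visomitin 1 lay well below the rest, the groups overlapped, and the gene did not pass (-0.13, limma adjusted p = 0.48). Cbl, an E3 ubiquitin ligase and adaptor phosphorylated by Src, was at 0.16, the adaptor gene Nck1 at -0.12 and the F-BAR protein gene Pstpip2 at 0.00 on the log2 fold change scale, and none of these passed. The 95% interval for Pstpip2 was -0.28 to 0.27.

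Plaque proteins that tie actin to integrins were lower for Vcl and Pxn, and did not pass for Tln1 and Fermt3. Vcl (vinculin) had 18.7, 21.9 and 24.2 TPM with Visomitin, against 35.1, 29.1 and 38.8 TPM in controls. The groups did not overlap, and control 2 was the lowest control library (log2 fold change -0.65, SE 0.14, limma adjusted p = 0.030). Pxn (paxillin), a scaffold phosphorylated by Src and PYK2, had 97.5, 117.1 and 117.6 TPM with Visomitin, against 156.6, 150.4 and 145.7 TPM in controls. Again the groups were apart and Visomitin 1 was lowest (-0.45, SE 0.10, limma adjusted p = 0.030). Tln1 (talin), the integrin activator, averaged 198 ± 31.0 TPM with Visomitin and 233 ± 2.52 TPM in controls (-0.25, limma adjusted p = 0.24), and Fermt3 (kindlin-3), its partner in blood cells, 234 ± 22.4 and 241 ± 4.84 TPM (-0.05, limma adjusted p = 0.77). The call of Vcl was lost without Visomitin 1, Visomitin 2, control 1 or control 3 (adjusted p 0.058 to 0.105), and that of Pxn without Visomitin 2 or any single control library (0.067 to 0.113). Their log2 fold changes stayed at -0.76 to -0.55 and -0.49 to -0.36.

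In the module that switches on actin branching, Cttn fell and Was, Wasl and Wipf1 did not pass. Cttn (ENSMUSG00000031078), encoding cortactin, which stabilises branched actin, had 9.87, 11.6 and 14.3 TPM with Visomitin, against 29.6, 25.9 and 37.1 TPM in controls. Every Visomitin library was below every control library, a 2.46-fold lower level on the log2(TPM + 1) scale (-1.30, SE 0.17, limma adjusted p = 0.0037). Hcls1, the cortactin relative of blood cells and chosen after its values were seen, was more abundant and did not pass, at 316 ± 16.8 TPM with Visomitin and 337 ± 7.76 TPM in controls (-0.09, limma adjusted p = 0.48). Cttn made up 3.22 to 4.20% of the summed TPM of the pair with Visomitin and 7.28 to 9.91% in controls. Was, which encodes the haematopoietic activator of Arp2/3, had 88.1, 98.8 and 96.3 TPM with Visomitin, against 94.7, 98.7 and 94.2 TPM in controls. These groups overlapped (-0.02, 95% interval -0.21 to 0.16, limma adjusted p = 0.89). Wasl, its widely expressed relative, was low, at 4.30 ± 0.27 TPM with Visomitin and 5.24 ± 1.49 TPM in controls. Wipf1, encoding the WASP partner WIP, averaged 117 and 142 TPM, with all Visomitin libraries below the controls, and did not pass (-0.29, limma adjusted p = 0.14).

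Stromal markers varied between libraries along with some of these genes. Within both groups the order of the libraries was that of the summed stromal markers for 8 of the 41 genes and for 11.8% of all tested genes. The 8 were Cttn, Vcl, Actn1, Actn4, Fscn1, Ptk2b, Myh9 and Vasp. Control 2 had fewer stromal transcripts than Visomitin 3, with Col1a1 at 69.9 TPM in Visomitin 3 and 49.0 TPM in control 2. In that same pair Cttn was at 14.3 TPM in Visomitin 3 and 25.9 TPM in control 2, and Vcl at 24.2 and 29.1 TPM. Fscn1, encoding the bundling protein fascin, was at 16.9 TPM in Visomitin 3 and 8.79 TPM in control 2. These are values of single libraries, and what lies behind them was not tested. With the stromal level as a second term, chosen after seeing the data, 4 of the 41 genes remained called: Src (-0.81), Cttn (-1.01), Myo1d (-2.29) and Myo1e (-0.72). Of all 11753 tested genes, 240 (2.04%) were called lower with this term, against 591 (5.03%) without it. The 6 genes that lost their call kept log2 fold changes below 0, at -0.64 for Myo10, -0.55 for Sh3pxd2a, -0.48 for Dock5, -0.42 for Vcl, -0.40 for Pxn and -0.33 for Lcp1 (limma adjusted p 0.068 to 0.163). Without that term Vcl was at -0.65 and Myo10 at -0.67. The part of stromal cells in these results was otherwise not tested.

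For the Arp2/3 complex itself, which nucleates the branches, 0 of its 7 genes were called, and 1, Actr2, had an unadjusted p under 0.05. Of all 11753 tested genes, 7.1% were called and 2862 had an unadjusted p under 0.05. The log2 fold changes of the 7 genes ran from -0.24 for Actr2 to 0.05 for Arpc5. The summed level of the 7 genes was 3035, 3250 and 3300 TPM in the Visomitin libraries, against 3377, 3350 and 3278 TPM in the control libraries, and these ranges overlapped. Per length, Arpc1b, Arpc2 and Arpc3 were the most abundant subunit transcripts, averaging 703, 654 and 645 TPM with Visomitin and 748, 688 and 629 TPM in controls. Actr2 and Actr3, for the actin-related subunits ARP2 and ARP3, were the least abundant of the 7. They averaged 139 ± 7.92 and 282 ± 7.93 TPM with Visomitin and 164 ± 16.0 and 304 ± 19.1 TPM in controls. Over the 7 genes, the lowest limit of a 95% interval was -0.45, for Actr2, and the highest was 0.23, for Arpc5.

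Of the 6 myosins, 3 fell and 3 did not pass, where 5.03% of all tested genes fell. Myo1d (ENSMUSG00000035441), a short-tailed class I myosin that links membrane to actin, had 5.57, 8.70 and 7.15 TPM with Visomitin, against 37.6, 42.2 and 37.5 TPM in controls. The level was 4.98-fold lower on the log2(TPM + 1) scale (-2.32, SE 0.15, limma adjusted p = 8.14e-05), the 15th lowest log2 fold change of the 11753 genes tested. Osteoclast markers ran from -2.94 (Dcstamp) to -0.76 (Nfatc1), with a median of -2.03, and Myo1d was the one gene of the 41 below that median. Myo1e, a long-tailed class I myosin found in podosomes, had 55.8, 68.3 and 67.2 TPM with Visomitin, against 107.1, 111.9 and 107.8 TPM in controls (-0.77, SE 0.10, limma adjusted p = 0.0034). Myo10, a filopodial myosin, had 27.4, 35.9 and 33.3 TPM with Visomitin, against 49.4, 54.7 and 50.2 TPM in controls (-0.67, SE 0.12, limma adjusted p = 0.013). In all 3 genes the groups were apart and Visomitin 1 was the lowest library. The call of Myo10 was lost without control 1 or control 2 (adjusted p 0.053 and 0.051), at -0.75 to -0.56.

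Myo1f, the other long-tailed class I myosin and the most abundant of the 6 myosin transcripts, did not pass. It averaged 374 ± 46.0 TPM with Visomitin and 318 ± 22.1 TPM in controls (0.23, 95% interval -0.01 to 0.47, limma adjusted p = 0.23). Within the summed TPM of 5 class I myosins, which include Myo1c and Myo1g, also chosen after their values were seen, Myo1f took 54.0 to 56.4% with Visomitin and 43.9 to 46.2% in controls. Myo1d took 0.93 to 1.16% and 5.23 to 5.80%, and Myo1e 9.12 to 9.85% and 14.9 to 16.1%, in the same order of groups. None of these shares overlapped between groups, and they were not tested. Myo9b, a class IX myosin, was at 0.13, and Myh9, the heavy chain of non-muscle myosin IIA, at -0.10. Neither passed, and Myh9 changed sign without Visomitin 1 (0.03).

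**Figure D2:**
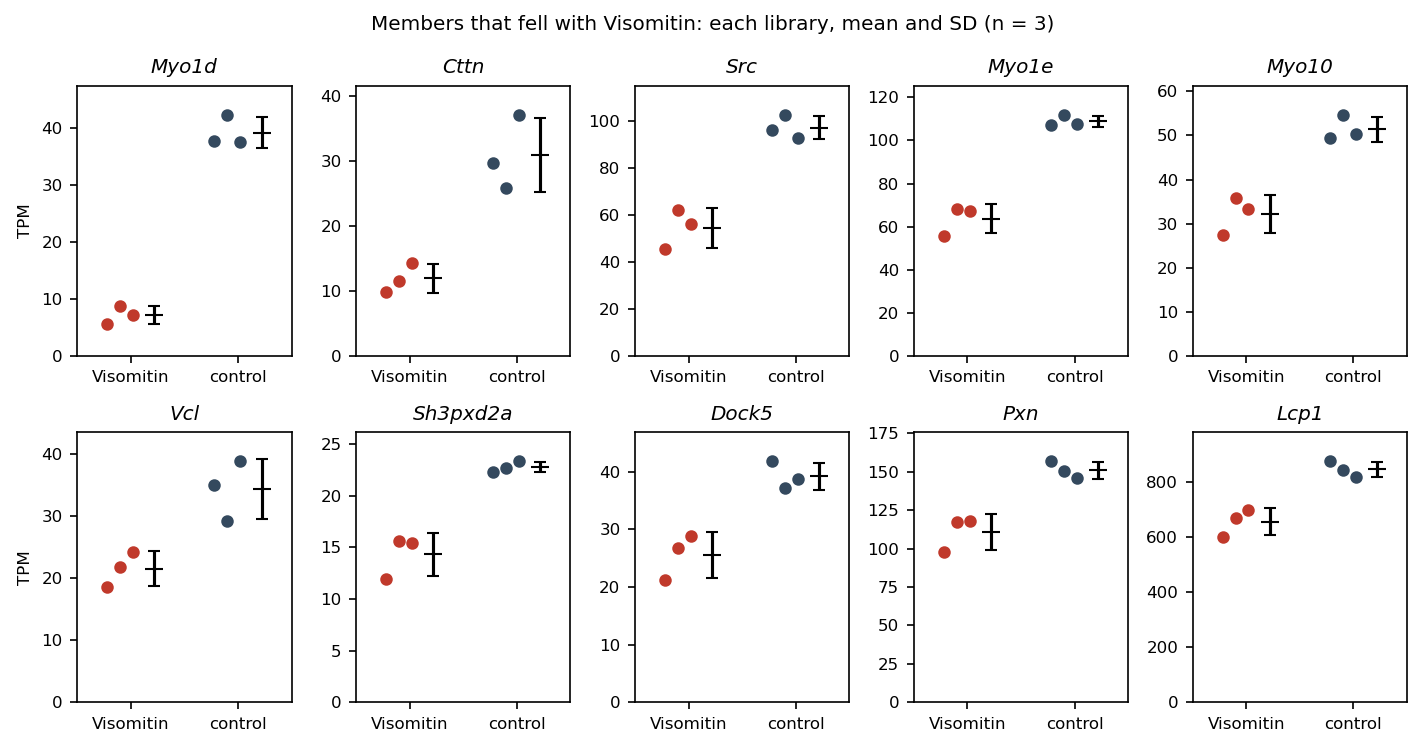
TPM of the 10 genes that fell, 1 panel per gene, with a linear axis from 0, points for the 3 Visomitin and the 3 control libraries, and the mean with SD to their right. No Visomitin library reaches the lowest control library in any panel, and Myo1d shows the largest ratio between the group means, 7.14 ± 1.57 TPM against 39.1 ± 2.70 TPM.

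Many actin genes are regulated by the transcription factor SRF through the CArG box, so promoters of the 41 genes were searched for it. RefSeq promoter windows on GRCm38.p6, from 250 bases before to 50 after the start, were at hand for 33 of the 41 genes, 5 of them among the 10 that fell. A CArG box was found in 3 of the 33 genes and in 1.81% of all 27025 genes with a window. These 3 are shown because 2 of them, Vcl and Myo1e, fell and 1, Arpc4, did not pass. The 250 bases before the start are given, on the RefSeq build GRCm38.p6 and 5′ to 3′, with the CArG box in capitals. The box reads as a match on both strands.
Vcl, chr14:20929148-20929397, plus strand: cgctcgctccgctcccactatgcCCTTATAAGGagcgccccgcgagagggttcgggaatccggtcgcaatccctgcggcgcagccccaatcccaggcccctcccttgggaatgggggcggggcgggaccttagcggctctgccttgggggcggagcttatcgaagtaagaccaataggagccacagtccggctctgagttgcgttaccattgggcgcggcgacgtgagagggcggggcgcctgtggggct
Myo1e, chr9:70207100-70207349, plus strand: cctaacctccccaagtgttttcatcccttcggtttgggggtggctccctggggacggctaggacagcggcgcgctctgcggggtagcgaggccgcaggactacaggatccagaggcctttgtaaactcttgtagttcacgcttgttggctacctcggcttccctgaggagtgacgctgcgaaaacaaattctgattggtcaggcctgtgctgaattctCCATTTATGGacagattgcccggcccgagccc
Arpc4, chr6:113377863-113378112, plus strand: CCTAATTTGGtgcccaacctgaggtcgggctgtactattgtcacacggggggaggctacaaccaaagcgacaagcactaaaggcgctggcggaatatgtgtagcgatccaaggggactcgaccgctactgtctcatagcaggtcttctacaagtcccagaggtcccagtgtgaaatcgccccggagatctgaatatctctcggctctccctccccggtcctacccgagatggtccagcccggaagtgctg
Counted from the start site, the box spans -227 to -218 in Vcl, -32 to -23 in Myo1e and -250 to -241 in Arpc4. Other short motifs were searched on both strands in the same windows. The NFAT core TGGAAA was in 7 of the 33 genes and 23.9% of all genes, and the PU.1 core GAGGAAG in 5 and 15.4%. The AP-1 motif TGANTCA was in 2 and 8.97%, and the E-box CACGTG, to which MITF binds, in 1 and 8.09%. Motif matches are descriptions of letters in these windows and were not tested.

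Among actin crosslinkers and filament regulators, 1 of 9 genes fell, where 5.03% of all tested genes did. Lcp1, encoding the leukocyte actin-bundling protein L-plastin, had 599.7, 667 and 698 TPM with Visomitin, against 873, 843 and 817 TPM in controls, with no overlap (-0.37, SE 0.08, limma adjusted p = 0.034). This call was lost without Visomitin 2 or any single control library (adjusted p 0.091 to 0.128), at -0.42 to -0.31. The actin crosslinker gene Actn1 averaged 122 ± 23.2 TPM with Visomitin and 179 ± 19.5 TPM in controls (-0.56, limma adjusted p = 0.057). It did pass without Visomitin 3 (0.040). Actn4 averaged 209 ± 35.2 and 263 ± 19.8 TPM (-0.34, limma adjusted p = 0.15), and the share of Actn1 in the pair was 35.9 to 37.2% with Visomitin and 39.4 to 41.1% in controls. Fscn1 spread widely within both groups, at 6.94 to 16.9 TPM with Visomitin and 8.79 to 27.4 TPM in controls (limma adjusted p = 0.50).

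The filament-end and monomer regulators of the set did not pass. Pfn1 (profilin) and Cfl1 (cofilin), the most abundant transcripts of the 41 genes, averaged 2034 ± 124 and 1084 ± 31.8 TPM with Visomitin and 2273 ± 88.5 and 1204 ± 52.5 TPM in controls. In both genes all Visomitin libraries were below all controls, with log2 fold changes of -0.16 and -0.15 (limma adjusted p = 0.25 and 0.24). Gsn, encoding the severing protein gelsolin, was at -0.10. Evl and Vasp, related proteins that promote filament elongation, differed in level: Evl averaged 115 ± 2.63 TPM with Visomitin and 137 ± 2.01 TPM in controls (-0.25, limma adjusted p = 0.077; 0.038 without Visomitin 1), and Vasp 183 ± 20.4 and 182 ± 1.98 TPM (0.00, limma adjusted p = 0.99).

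The small GTPase genes Rac1, Cdc42 and Rhoa did not pass, and 1 of the 2 exchange factor genes, Dock5, fell. Dock5, a Rac exchange factor needed for the sealing zone of mouse osteoclasts, had 21.2, 26.7 and 28.8 TPM with Visomitin, against 41.8, 37.1 and 38.7 TPM in controls. The groups did not overlap (-0.61, SE 0.13, limma adjusted p = 0.027), and the call was lost without Visomitin 2 or any single control library (adjusted p 0.060 to 0.105, at -0.70 to -0.48). Dock2, the Rac exchange factor of leukocytes and chosen after its values were seen, averaged 80.8 TPM with Visomitin and 74.9 TPM in controls, so that Dock5 made up 22.9 to 24.7% of the pair with Visomitin and 32.9 to 35.5% in controls. Vav3, another exchange factor of osteoclasts, averaged 7.50 ± 0.53 and 8.58 ± 0.60 TPM (limma adjusted p = 0.42). Rac1 averaged 122 ± 23.6 TPM with Visomitin and 104 ± 5.73 TPM in controls, Cdc42 472 ± 22.3 and 488 ± 24.9 TPM, and Rhoa 443 ± 4.89 and 427 ± 8.32 TPM. Their log2 fold changes were 0.20, -0.05 and 0.05, with limma adjusted p of 0.41, 0.75 and 0.68. Rac2, the Rac of blood cells and chosen after its values were seen, averaged 125 ± 9.24 TPM with Visomitin and 205 ± 16.7 TPM in controls (-0.71, limma adjusted p = 0.0041). It was 46.1 to 53.9% of Rac1 and Rac2 together with Visomitin and 64.3 to 68.4% in controls.

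**Figure D3:**
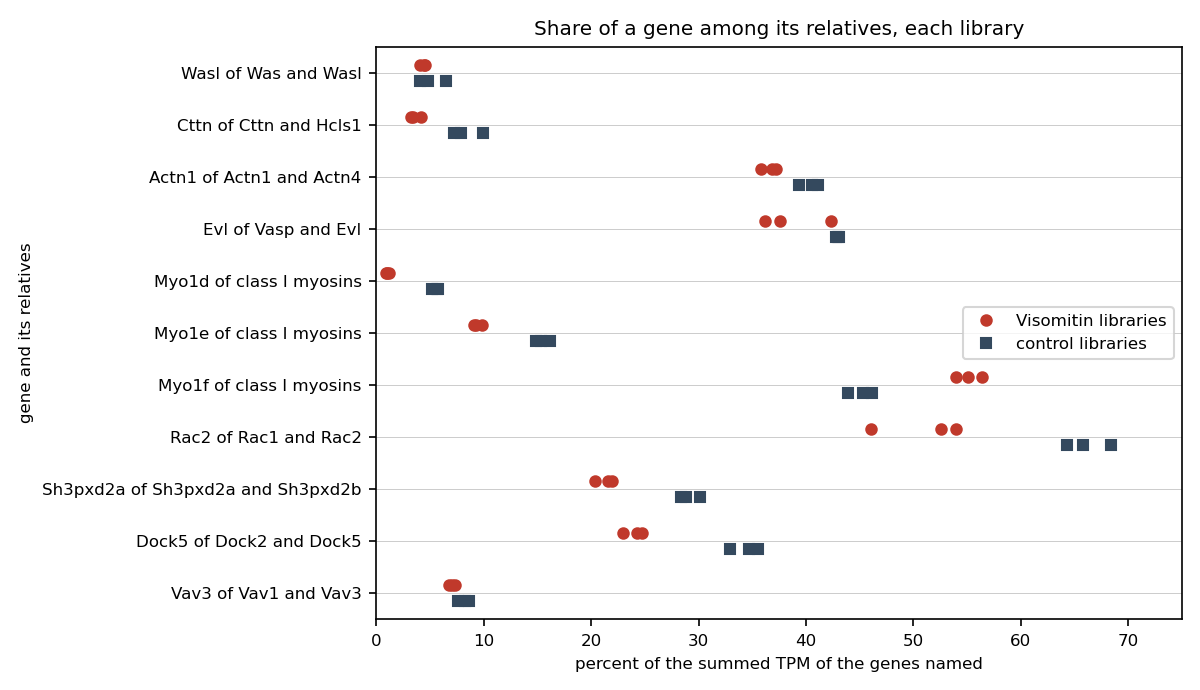
Share of a gene in the summed TPM of itself and its named relatives, in percent, for each Visomitin library (circles) and each control library (squares). Myo1f takes a larger share in all Visomitin libraries than in any control library. Wasl overlaps, and the other 9 shares are smaller in all Visomitin libraries. In level rather than share, 18.4% of all tested genes were lower in all Visomitin libraries and 11.9% were higher. Hcls1, Sh3pxd2b, Dock2, Rac2, Vav1, Myo1c and Myo1g were chosen after their values were seen. A share follows from the levels of its genes, so it is not a separate result. The shares were not tested.

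Further genes of the adhesion and actin machinery, in 4 lists written with earlier results of these data known, gave the surroundings of the 41. Of all tested genes, 5.03% were called lower and 2.08% higher. The share called lower was 33.3% of the receptors, 15.4% of the WASP and WAVE regulators and formins and 15.6% of the adhesion genes. Of 12 integrin and matrix receptor genes, 4 fell and 0 rose. Itgb3 and Itgav, the pair that forms the vitronectin receptor of osteoclasts, were at 11.2 ± 1.18 and 40.6 ± 5.65 TPM with Visomitin, against 47.6 ± 3.75 and 77.3 ± 1.59 TPM in controls (-2.0 and -0.92, limma adjusted p = 4.75e-05 and 0.0028). Itgax, the CD11c subunit, and Mmp14, the membrane metalloproteinase, fell as well (-1.52 and -0.90). The other 8 receptors did not pass, and the median of the list was -0.21. They ran from -0.39 for Cd44 to 0.54 for Itga6 (limma adjusted p = 0.051). Itgb1 (0.02) and Itgb2 (-0.05), both chosen after their values were seen, lay between. In the whole list 7 values were below 0 and 5 above. The 4 lower calls held without any single library, while 0 to 3 of the list were called higher in those fits.

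Of 26 tested WASP and WAVE regulators and formins, 4 fell and 0 rose (median -0.07): the F-BAR gene Fnbp1l (-0.87), the kinase gene Abl2 (-0.58) and the formin genes Inf2 (-0.59) and Fmnl2 (-0.67). Between 1 and 3 of this list were called with 1 library left out, and Fmnl2 lost its call without any single one, Inf2 without Visomitin 2 or any control, and Abl2 without control 1 or control 2.

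Of 45 tested adhesion adaptors, kinases and phosphatases, 7 fell and 1, Fyn, rose (median -0.07), and 1 to 7 were called lower with 1 library left out, the fewest without control 1. Tm4sf19, a multipass membrane protein, was at 11.6 ± 0.70 TPM with Visomitin and 58.1 ± 6.88 TPM in controls (-2.22, limma adjusted p = 3.03e-05). Ptpre, encoding a phosphatase that activates Src in mouse osteoclasts, fell by 0.68 (limma adjusted p = 0.0098; 0.053 without control 1), and Tes, a LIM-domain adhesion protein, fell by 0.66 on the same log2 scale (0.015; up to 0.066 without Visomitin 2, control 1 or control 3). Of 43 genes for actin, myosin light chains and actin-binding proteins, 2 rose and 2 fell (median -0.09), with 4 called lower without Visomitin 1 and 1 without Visomitin 2 or any single control library. The share of this list called lower, 4.65%, was near the 5.03% of all tested genes. Lsp1, a leukocyte actin-binding protein, was at 104 ± 13.9 TPM with Visomitin and 51.3 ± 7.63 TPM in controls (1.01, limma adjusted p = 0.0050), and Marcks was at 0.43 (0.039). Lasp1 (-0.58) and Tpm1 (-0.54) were lower. Marcks lost its call without any library but Visomitin 1, and Tpm1 without any but Visomitin 3 (adjusted p up to 0.14 and 0.13).

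**Figure D4:**
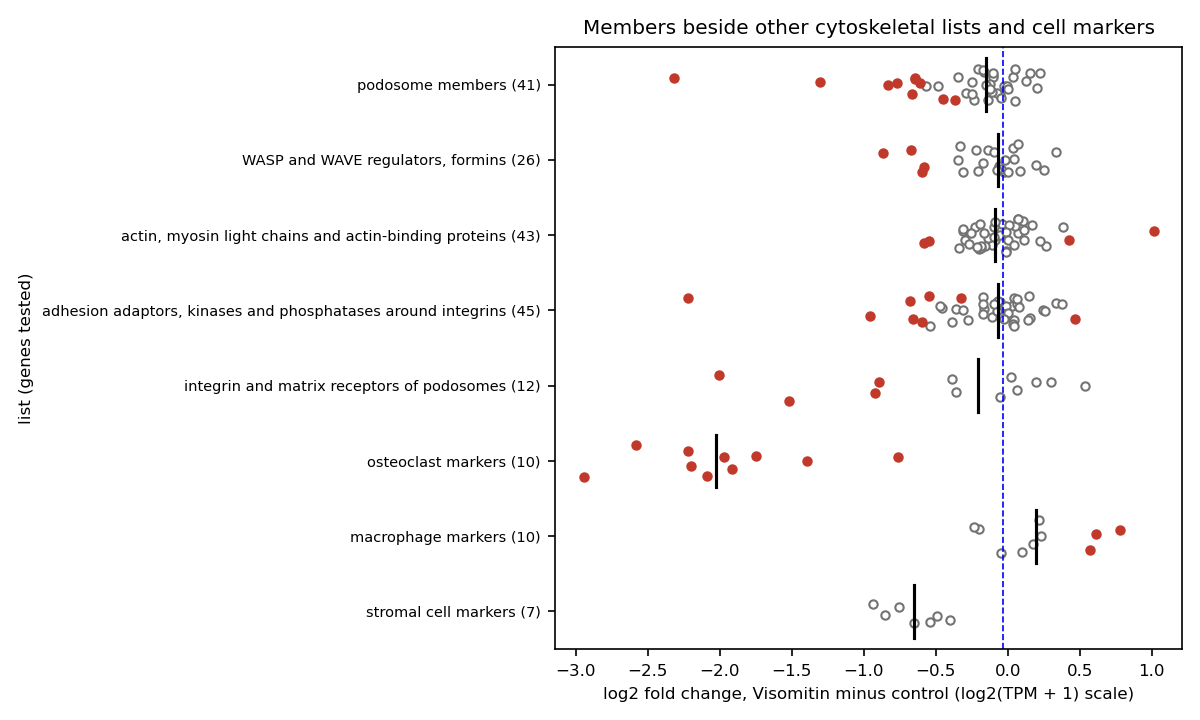
Log2 fold changes, Visomitin minus control on the log2(TPM + 1) scale, of the 41 podosome genes, the 4 other lists and 3 marker lists, with filled points for an adjusted p under 0.05, a bar at each median and a dashed line at the median of all tested genes (-0.03). The podosome median lies at -0.15, the osteoclast markers at -2.03 and the macrophage markers at 0.19.

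Transcripts of the 10 genes that fell were longer than those of the 31 that did not pass, with a median of 4946 bases against 2675 bases for the longest protein-coding transcript in GENCODE M21. In Visomitin 1 longer transcripts tended to deviate downward, as the correlation given above shows, and the part of this in the result was not tested. After a correction of each library for transcript length and GC content, chosen after seeing the data, all 10 remained called. Wipf1, Actn1 and Actn4 were added and 1 gene, Myo9b, was called higher. Over all 11554 genes in that fit, 914 (7.91%) were called lower and 919 higher. Without Visomitin 1, 9 of the 10 remained called, and Vcl did not.

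**Figure D5:**
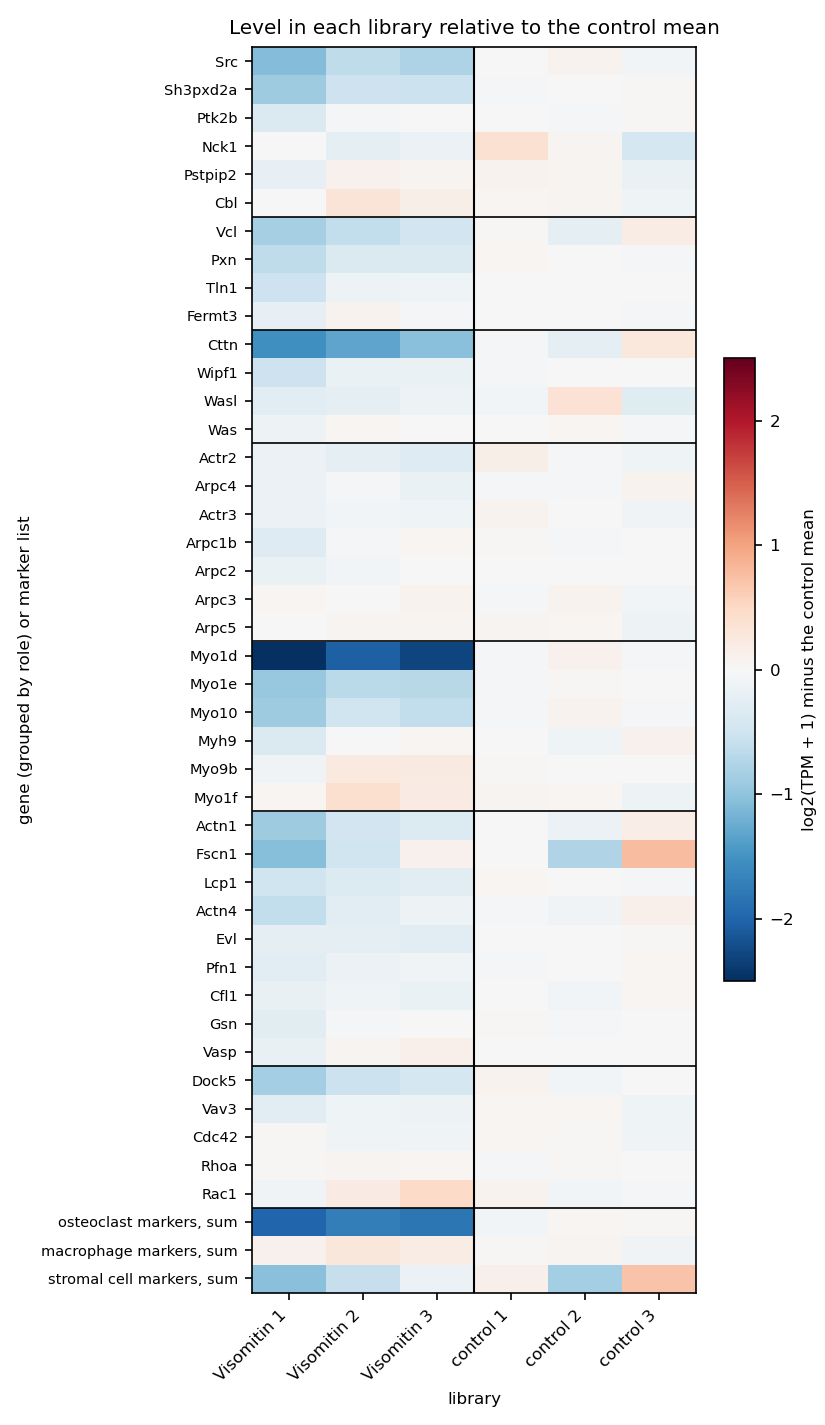
Level of each of the 41 genes and of 3 summed marker lists in each library, as log2(TPM + 1) minus the control mean, with Visomitin libraries in the left columns and control libraries in the right ones and lines between roles. Visomitin 1 has the lowest value in 30 of the 41 genes, and the stromal row is high in control 3 and low in control 2 and Visomitin 1. The macrophage row is mostly Lyz2.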

How the data were processed

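RNA was sequenced from 6 libraries, 3 with Visomitin and 3 controls, made with a stranded mRNA kit per the labels' protocols. The submitters' processing notes name fastp, HISAT2 and StringTie. Their versions and roles, the genome build and the annotation were not given in any source at hand. What the authors deposited is 1 TPM value per gene and library. TPM keep no depth, so the number of libraries limits precision. Symbols came from GENCODE M21 and matched 51884 of 57180 identifiers. The fit took the 11753 genes that reached 1 TPM in 3 or more libraries, as log2(TPM + 1), in limma 3.58.1 under R 4.3.3, with an intensity trend and group as the only term. P-values are two-sided and Benjamini-Hochberg adjusted over all genes tested, with a threshold of 0.05. The script was tested on simulated data. A fold change on this scale understates the change of low genes.

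All 41 genes are named, whatever their result, and up to 4 genes with the lowest p-values from each of 4 further lists. Some other results are not reported here. Myeloid relatives shown beside a gene were chosen after their values were seen. The members and lists were chosen with earlier results of these data known. Alternatives were a pseudocount of 0.1, no filter, median-ratio scaling, a block for the library number, and each library left out in turn. Length and GC correction and a stromal term were added after seeing the data. At most 0.391% of tested genes had identical values in any pair of libraries.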

Additional observations from a re-analysis of the deposited data

How the results depend on the processing

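The calls of Myo1d, Cttn, Src and Myo1e held under all 12 alternatives. The count of podosome genes called lower, 10, was 5 with no filter on low values and 4 with the stromal term, and ran from 4 to 11 with 1 library left out. The count called higher, 0, was 1 once length and GC were corrected for. Over all genes, 591 were lower and 244 higher. Corrected for length and GC they were 914 and 919. They were 308 and 73 with no filter, 240 and 61 with the stromal term, 676 and 499 after median-ratio scaling, and 570 and 236 with a pseudocount of 0.1. With 1 library left out they ran from 244 to 561 and from 64 to 420. Fits with fewer libraries or a further term have fewer residual degrees of freedom. The part of this in the counts was not tested. Without control 1, control 2, control 3 or Visomitin 2 the lower genes numbered 244, 330, 289 and 304. With the library number as a replicate block, which the labels do not state to be a pairing, 799 were lower and 308 higher in all, and 11 podosome genes were lower, Actn1 being the addition. The numbers were not taken as pairs because the labels state no pairing. Same-numbered libraries correlated in their deviations at 0.05, 0.02 and 0.17. Libraries with different numbers were not compared in this way, so these values cannot decide whether the libraries were paired.

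The median log2 fold change over all genes, -0.03, was 0.01 with median-ratio scaling and 0.03 with the correction for length and GC. Over the 41 genes it was -0.15, with -0.10 and -0.09 under the same settings. Small values that did not pass changed sign. Corrected for length and GC, Fermt3 was at 0.0042, Was at 0.036, Pstpip2 at 0.046 and Cdc42 at 0.0063. With median-ratio scaling Was was at 0.025, Pstpip2 at 0.043 and Cdc42 at 0.0013, and with the stromal term Myh9 was at 0.077, Arpc3 at -0.017 and Fscn1 at 0.33. Leaving out 1 library at a time gave ranges across 0 for Fermt3 (-0.12 to 0.023), Was (-0.057 to 0.025), Pstpip2 (-0.087 to 0.093), Myh9 (-0.17 to 0.029), Arpc1b (-0.17 to 0.012), Arpc5 (-0.012 to 0.085), Vasp (-0.056 to 0.096) and Nck1 (-0.35 to 0.068). TPM keep no counts, so no counting interval limits these values. The causes were not tested.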
